A study of Saccharomyces cerevisiae with 2 samples.

Results

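The nucleosome ladder described here is the distribution of distances between the ends of Micro-C read pairs whose 2 reads have the in-out or the out-in orientation, taken at every distance from 83 to 3300 bp in swr1Δ yeast. They are taken as the tandem orientations, in which both reads run the same way along the chromosome, although the sources used here do not define them. The members are the read pairs of 2 columns in each of 2 libraries over 3218 distances, and they numbered 973460 of the 16119404 pairs in all orientations and at all distances. Library A contributed 406896 ladder pairs, 4.62% of its 8804603 pairs (95% Wilson interval 4.61% to 4.64%). Library B contributed 566564, 7.75% of its 7314801 pairs (7.73% to 7.76%), so the library with fewer pairs in total held the larger ladder.

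Micro-C maps chromosome folding by cutting fixed chromatin with micrococcal nuclease (MNase) and joining the free ends, so that pairs of reads tell which nucleosomes lay near each other. Both libraries came from a swr1Δ strain of budding yeast in the W303 background, grown to mid-log phase in YPD, and swr1Δ is the genotype that they share. SWR1 encodes the ATPase of SWR-C, the remodeling enzyme that replaces H2A with the variant H2A.Z. The labels name 2 replicates, the headers of the count columns do not say which replicate they hold, and the methods call the replicates biological. WT was not analysed here, and no value below is an effect of the deletion.

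Nucleosomes in yeast genes sit at regular steps downstream of the promoter, and the step, a nucleosome core plus its linker, is the nucleosome repeat length. Ligated ends of neighboring nucleosomes therefore fall at distances that recur, and a plot of pairs against distance shows a ladder of peaks. In a population of cells the order of such a ladder is lost with distance, since the spread of each step adds to that of the steps before it.

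In both libraries, with in-out and out-in pairs summed, the ladder had 5 peaks whose amplitude held at positions chosen in the other library. They lay at means of 157, 331, 500.5, 675.5 and 833.5 bp. Peaks 1 and 2 stood out on the counts themselves. Peak 4 held slightly more pairs than the trough before it, and peaks 3 and 5 held fewer. Those troughs were set after the decay with distance was taken off, and such a trough can lie on the falling side of the peak before it. The plot of the 4 profiles by distance shows these features.

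**Figure D1:**
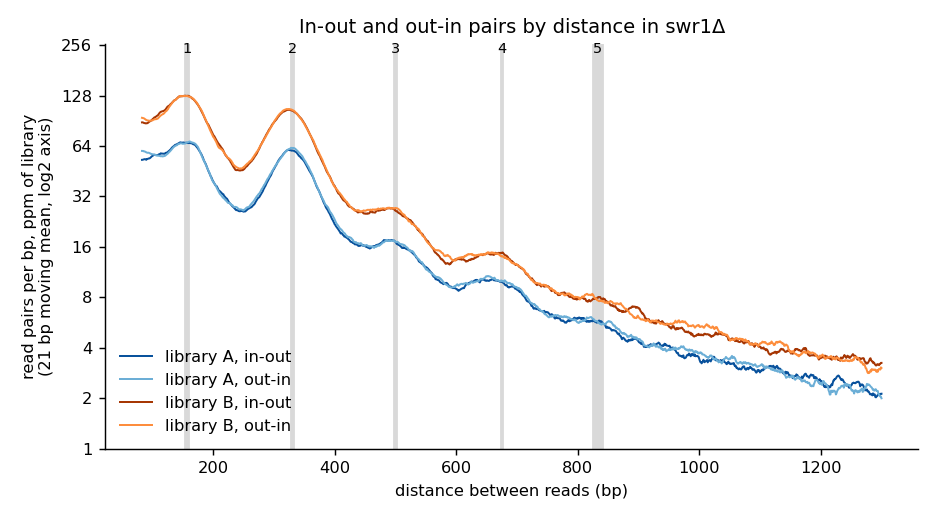
In-out and out-in read pairs per bp (ppm of all pairs of the library, 21 bp moving mean, log2 axis) against the distance between reads (bp) in libraries A and B. Gray bands span the positions of peaks 1 to 5 in the 2 libraries. The 2 orientations of a library lie on each other, and library B lies above library A at every peak.

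The first peak lay at 161 bp (library A) and 153 bp (library B), which is 157 ± 5.66 bp (SD, n = 2 libraries). It had a broad top, and the smoothed count stayed within 5% of its maximum over 137 to 172 bp (library A) or 139 to 168 bp (library B), and so its position is loosely set. Library A held 24924 pairs in the 21 bp window at this peak and 9681 at the trough after it, at 250 bp. Library B held 39154 and, at its trough at 244 bp, 14230. The peak was thus 2.57 times as high as the trough after it in library A and 2.75 times in library B.

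The second peak, at 333 bp (library A) and 329 bp (library B), or 331 ± 2.83 bp, was the tallest above its surroundings. Library A held 22604 pairs in the window there and 6831 at the trough at 419 bp, a ratio of 3.31. Library B held 32292 and, at 425 bp, 8557, a ratio of 3.77. In both libraries the count at peak 2 was below that at peak 1, but the trough after it was deeper relative to its peak.

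The third peak lay at 498 bp for library A and 503 bp for library B (500.5 ± 3.54 bp). Its window held 6442 pairs in library A and 8197 in library B, in each case fewer than the trough before it. The trough after it, at 590 bp (library A) and 582 bp (library B), held 3412 and 4139 pairs. A rise in the smoothed count before 500 bp remains visible in both libraries, but as a bump on a falling curve.

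Peaks 4 and 5 lay at 674 and 825 bp (library A) and at 677 and 842 bp (library B), with means of 675.5 ± 2.12 and 833.5 ± 12.0 bp. At peak 4 the window held 3718 pairs in library A and 4437 in library B, and the troughs after it, at 753 and 769 bp, held 2310 and 2561. At peak 5 it held 2192 and 2383 pairs, with 1515 and 1759 at the troughs at 909 and 919 bp. The libraries placed peak 4 within 3 bp of each other and peak 5 within 17 bp, so the fifth position is the least certain of the 5.

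The spacing between neighboring peaks was 172, 165, 176 and 151 bp in library A and 176, 174, 174 and 165 bp in library B. A straight line through the 5 peaks gave a repeat of 166.9 bp for library A and 172.6 bp for library B (169.75 ± 4.03 bp), and no peak lay more than 8.9 bp from its line. A line through the 5 troughs gave 165.2 and 169.4 bp (167.3 ± 2.97 bp). Peaks and troughs thus gave steps within the spread between libraries, and library B had the longer step by both measures.

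A damped cosine on a smooth baseline, fitted to the counts from 250 to 3300 bp, gave a repeat of 171.8 bp in library A (counting SE 0.9) and 174.0 bp in library B (SE 0.9), with a mean of 172.9 ± 1.58 bp. Library B minus library A was 2.23 bp, with a 95% interval from -0.35 to 4.82. The fit meant to give the repeat covered the whole ladder, from 83 to 3300 bp. It ran to the longest repeat it was allowed, 220 bp, in both libraries and left residuals 5.08 and 6.62 times the counting variance, so it gave no usable repeat length, and the values from 250 bp on are given in its place. From 250 bp on the residuals were 1.19 and 1.25 times the counting variance.

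The fitted repeat also depended on the range of distances, more in library A than in library B. A range from 420 to 3300 bp, which leaves out peak 2, was added after the counts were seen. The repeat there was 159.7 bp in library A, against 171.8 bp from 250 bp on. In library B it was 172.4 bp against 174.0 bp. The difference between libraries from 420 bp on was 12.7 bp (9.26 to 16.1). The libraries differed there beyond counting error, so the repeat length of the outer ladder is no better known than this spread.

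**Figure D2:**
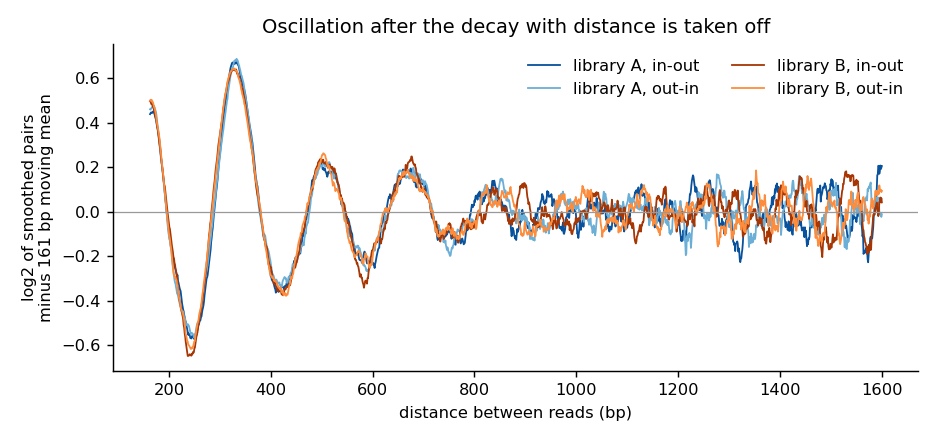
Log2 of the smoothed in-out and out-in pairs minus a 161 bp moving mean, against the distance between reads (bp), for the 4 columns. The 4 curves overlie each other as far as about the fourth peak and lose their common phase beyond 1000 bp.

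With the decay taken off, the profiles of the libraries were nearly the same curve at short distance, as the detrended plot shows. Across distances from 83 to 420 bp their correlation was r = 0.99, and from 421 to 1000 bp it was r = 0.97. From 1001 to 3300 bp the correlation was -0.02. Neighboring distances share the smoothing windows and are not independent, so these correlations are a description.

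Trough-to-peak amplitude, the log2 ratio of the pairs at a peak to the geometric mean of the pairs at its flanking troughs, was highest at peak 2. Peak 1 had 0.82 in library A (95% counting interval 0.79 to 0.84) and 0.99 in library B, a mean of 0.90 ± 0.12. Peak 2 had 1.47 and 1.55 (1.51 ± 0.05), peak 3 had 0.42 and 0.46 (0.44 ± 0.03), peak 4 had 0.41 and 0.45 (0.43 ± 0.03) and peak 5 had 0.23 and 0.17 (0.20 ± 0.04). As folds, these means are 1.87, 2.85, 1.36, 1.34 and 1.15. The peaks before and after the second were lower in both libraries, but the amplitude of peak 1 is limited on its near side by a point close to the lower end of the ladder, at 90 and 92 bp. With the trough after it alone, it was 1.41. As folds over the trough after alone, peak 1 had 2.57 and 2.75 and peak 2 had 3.31 and 3.77 (libraries A and B).

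**Figure D3:**
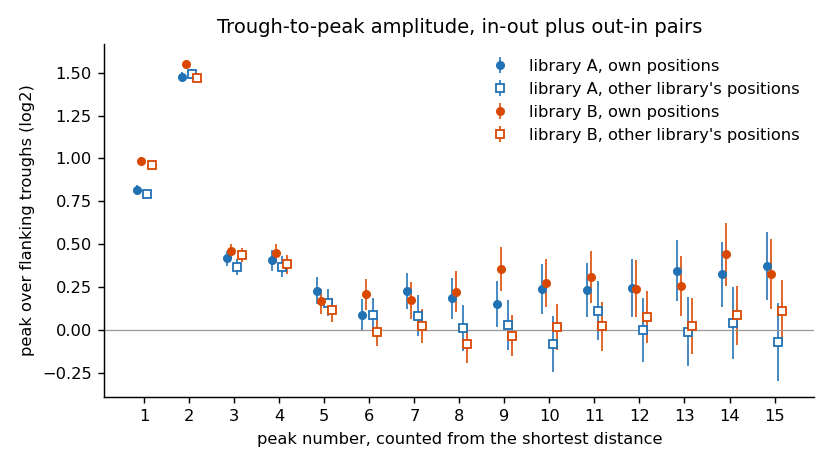
Log2 ratio of the pairs at each peak to its flanking troughs, by peak number, with 95% counting intervals. Circles use the positions found in the same library, and open squares those found in the other library. Only peaks 1 to 5 stay above 0 in both libraries at the other library's positions.

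Positions found in the same counts favor high values, so each amplitude was also measured at the positions of the other library. The means were then 0.88, 1.48, 0.40, 0.37 and 0.14 for peaks 1 to 5. At peak 5 the intervals were 0.08 to 0.24 in library A and 0.04 to 0.19 in library B, and so lay above 0 in both. At peak 6 they were -0.01 to 0.18 and -0.10 to 0.08. For peaks 6 to 15 the 20 values ran from -0.08 to 0.11 with a median of 0.02, and 0 of the 20 intervals lay above 0. At their own positions the same peaks gave 0.09 to 0.44, with a median of 0.24. At this depth no peak beyond the fifth held at the positions of the other library. That measure needs both libraries to place a peak alike, and they placed peak 6 at 988 bp (library A) and 1027 bp (library B). It therefore cannot tell an absent peak from one that the libraries placed differently.

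The loss of amplitude was not even from step to step. From peak 1 to peak 2 the amplitude was higher by 0.66 in library A (0.62 to 0.69) and 0.56 in library B (0.53 to 0.59). The size of this step takes in the near point of peak 1, close to the lower end of the ladder. Over the trough after the peak alone, the ratio rose from 2.57 to 3.31 in library A. In library B it rose from 2.75 to 3.77. From peak 2 to peak 3 it fell by 1.06 in library A and by 1.09 in library B, to 1 part in 3.54 and 3.35. From peak 3 to peak 4 it changed by -0.01 (-0.08 to 0.06) and -0.02 (-0.08 to 0.05), intervals that include 0. From peak 4 to peak 5 it fell by 0.18 (-0.26 to -0.09 as a difference) and by 0.28 (-0.36 to -0.20). In both libraries the order was therefore a large drop, no detectable change, and a smaller drop.

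A single decay length did not describe these steps. In the fit from 250 bp the oscillation fell by a factor of e over 141 bp in library A (SE 3.6) and 129 bp in library B (SE 2.9), a mean of 135 ± 8.62 bp, so that 29.6% and 25.9% of it was left after each repeat. Library B minus library A was -12.2 bp there (-21.1 to -3.22), but 7.97 bp over 250 to 1000 bp (-4.83 to 20.8) and -21.5 bp over 420 to 3300 bp (-151 to 108), so its sign was not settled. Without peak 2, from 420 bp on, the decay length was 433 bp (library A) and 411 bp (library B), with 69.1% and 65.7% left per repeat. The log amplitudes of peaks 1 to 5 on a line gave 434 and 360 bp. The damping length thus differed between these measures by more than the spread between libraries.

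The number of tandem pairs itself also fell with distance, and not evenly. In 18 consecutive intervals of 1 repeat (169.75 bp, centered on multiples of it), interval 1 held 36.4% of the ladder pairs of library A and 39.3% of those of library B. Interval 2 held 28.7% and 30.0%, interval 3 held 10.7% and 9.78%, interval 4 held 6.47% and 5.50%, and interval 5 held 3.84% and 3.19%. The first 2 intervals thus carried more than all others together. From interval 1 to interval 18 the count fell by 6.56 in library A and 6.72 in library B on the log2 scale (6.64 ± 0.11), of which 5.37 was lost by interval 10.

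The libraries differed in this decay. Scaled to the ladder total of each library, library B over library A came to 0.11 on the log2 scale in interval 1 (0.10 to 0.12) and 0.06 in interval 2, but -0.13 in interval 3, -0.23 in interval 4 and -0.27 in interval 5 (-0.30 to -0.24). It was -0.05 in interval 18 (-0.15 to 0.04). Counting intervals excluded 0 in 16 of the 18. As a share of its ladder pairs, library B was therefore richer in the first 2 steps and poorer in the next ones. Shares of a total offset each other, so this describes the shape of the decay only. Scaled to all pairs of each library, library B was higher than library A in every interval. Interval 1 held 30420 ppm in library B against 16818 ppm in library A, and interval 5 held 2474 against 1775 ppm.

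The in-out and out-in columns held nearly equal numbers. Library A had 201973 in-out and 204923 out-in pairs, an in-out share of 49.64% (95% Wilson interval 49.48% to 49.79%). Library B had 282717 and 283847, a share of 49.90% (49.77% to 50.03%). The mean was 49.77% ± 0.186. The share was below 50% in both libraries, over the whole ladder beyond counting error in library A only. A split of the ladder at 120 bp was added after the counts were seen. From 83 to 119 bp the share was 49.3% in library A (48.7% to 49.8%) and 50.3% in library B (49.9% to 50.8%). From 120 bp on it was 49.68% (49.51% to 49.84%) and 49.86% (49.72% to 49.99%), below 50% beyond counting error in both. An exact sign-flip test over 2 libraries cannot go below p = 0.5 (two-sided).

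**Figure D4:**
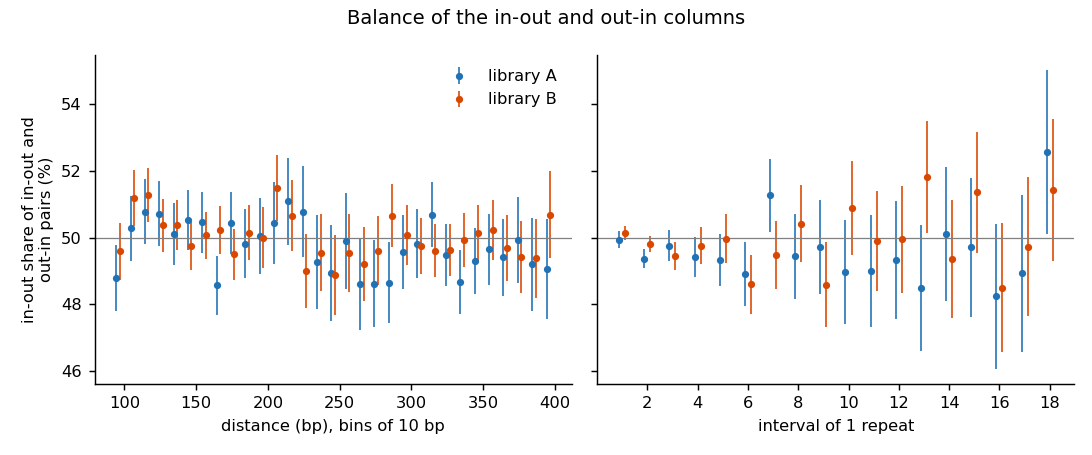
In-out pairs as a share of both columns (%) with 95% Wilson intervals, in bins of 10 bp to 400 bp on the left and in the 18 intervals of 1 repeat on the right. The shares scatter around the line at 50% and the intervals widen with distance as the counts fall.

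By interval of 1 repeat the share spanned 48.2% to 52.6% (library A) and 48.5% to 51.8% (library B), and the Wilson interval included 50% in 14 of 18 intervals in each library. The intervals that did not were 2 above and 2 below in library A, and 1 above and 3 below in library B. Taken bp by bp over the whole ladder, the split between the columns varied 1.03 times as much as counting error in library A and 1.04 times in library B. From 83 to 119 bp it varied 1.98 and 1.93 times as much, and from 120 to 3300 bp 1.02 and 1.03 times. The split thus varied about as much as counting error from 120 bp on, and more below that. Beyond the ladder, from 3300 to 10000 bp, the share was 49.7% and 49.9%.

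Peak 1 lay at 146 bp in the in-out and 162 bp in the out-in column of library A, against 154 and 157 bp for library B. For peak 2 these positions were 331 and 333 bp (library A) and 326 and 329 bp (library B). The 4 positions of a peak spanned 16, 7, 17, 11 and 74 bp for peaks 1 to 5, so the second was placed most closely and the fifth least. Peak 5 lay at 839 (in-out) and 853 bp (out-in) in library A, and at 824 bp in the out-in column of library B. The in-out column of library B placed it at 898 bp, close to the trough of the summed columns at 919 bp. In the fit from 250 bp the in-out repeat differed from the out-in repeat by -1.60 bp in library A (-5.11 to 1.92) and by 1.30 bp in library B (-2.19 to 4.79), opposite signs with 0 inside both intervals.

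The amplitudes of the columns, at shared positions, differed beyond counting error in 3 of 10 comparisons. In-out minus out-in was 0.06 at peak 1 in library A (0.01 to 0.11), 0.05 at peak 1 in library B (0.01 to 0.09) and 0.15 at peak 4 in library B (0.04 to 0.26). The difference at peak 1 recurred in both libraries and was smaller than that between the libraries (0.82 against 0.99). The difference takes in the near trough. At 81 to 90 bp the in-out share was 46.6% (library A) and 48.5% (library B), and at 91 to 100 bp it was 48.8% and 49.6%. Whether the near trough accounts for the difference was not tested. The window at peak 1 held 12349 in-out and 12575 out-in pairs in library A, and 19592 and 19562 in library B. Over the trough after it alone, at each column's own positions, the in-out and out-in ratios were 2.59 and 2.58 (library A) and 2.78 and 2.71 (library B).

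On top of the ladder lay a fine oscillation in the first step. Divided by their 21 bp moving mean, the counts from 83 to 250 bp had their strongest period between 5 and 19 bp at 10.4 bp in library A and at 10.4 bp in library B. The helical turn of DNA is of a similar length. In the band from 9 to 12 bp the power was 9.64 times that of the other periods in library A and 8.93 times in library B. A cosine of 10.35 bp had a size of 4.35% of the local level in library A (counting SE 0.36) and 4.33% in library B (SE 0.30), and its first maximum lay at 83.8 and 83.3 bp, so the libraries had the same size and nearly the same phase.

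**Figure D5:**
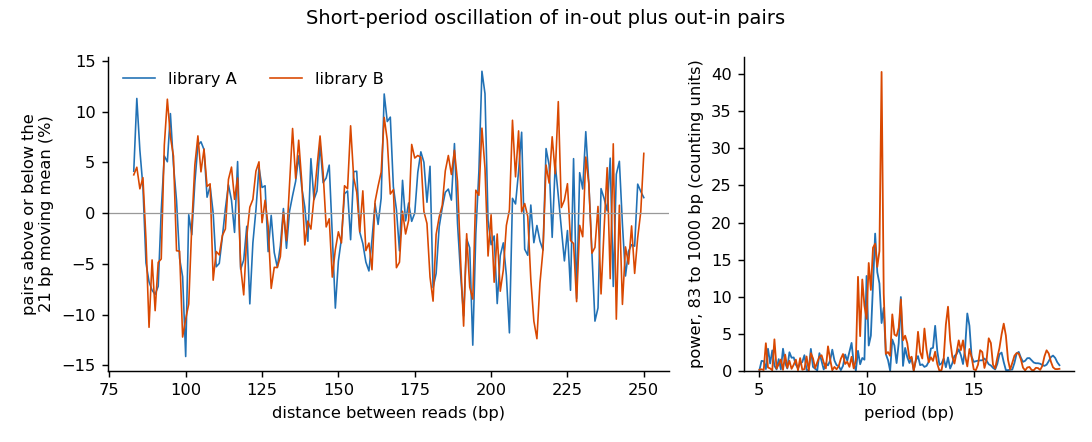
Left, pairs at each distance from 83 to 250 bp as a percentage above or below their 21 bp moving mean, in-out and out-in pairs summed, against the distance between reads (bp). Right, power of that ratio from 83 to 1000 bp against period (bp). The curves of libraries A and B rise and fall together, and the power of both is highest between 10 and 11 bp.

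Across the 168 distances from 83 to 250 bp the fine oscillation of the 2 libraries had r = 0.63, and the in-out and out-in columns of 1 library had r = 0.34 in library A and 0.47 in library B. From 251 to 420 bp the correlation between libraries was 0.18, with a size of 0.94% (SE 0.41) in library A and 1.87% (SE 0.34) in library B. From 421 to 1000 bp the correlation was -0.02, with sizes of 1.26% (SE 0.47) and 1.57% (SE 0.42) at periods of 10.05 and 10.7 bp. From 1000 to 3300 bp it was 0.02, with sizes of 2.37% (SE 0.64) and 1.64% (SE 0.58) at periods of 11.6 and 10.7 bp. The period was chosen in each range as the best between 9 and 12 bp, which favors large sizes. These correlations are across distances of the same libraries and are given as a description. The fine oscillation was thus larger under the first peak than at the distances after it in both libraries, and beyond 420 bp the correlation between libraries was near 0.

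Over the whole ladder the power from 9 to 12 bp was 1.23 times that of the other periods in library A and 2.29 times in library B (1.76 ± 0.76). Beyond 1000 bp it was 0.89 and 0.88.

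The other orientations had troughs at shifted distances. Troughs of the in-in pairs fell at 370, 537 and 700 bp (library A) or 362, 530 and 690 bp (library B), 105 to 120 bp beyond the tandem troughs 1 to 3 (mean 113.2 bp over 6 values). Troughs of the out-out pairs fell at 139, 321 and 471 bp (library A) or 140, 314 and 457 bp (library B), 98 to 125 bp short of them (mean -111.3 bp). Each in-in trough was set against the tandem trough before it, and each out-out trough against the tandem trough after it. Another pairing would give other shifts. In library A the in-in trough at 370 bp was paired with 250 bp but lay nearer to the tandem trough at 419 bp. In the pairing used, the tandem troughs were about midway between those of the other orientations on average. The peaks and damping of the other orientations were not measured. Within 83 to 3300 bp the in-out and out-in pairs were 2.40% and 2.44% of the pairs of all orientations in library A, and 4.14% and 4.15% in library B, against 93.1% and 88.5% for in-in pairs.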

How the data were processed

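Micro-C read pairs of 2 swr1Δ libraries were analysed. The authors deposited raw counts of read pairs at each distance from 1 to 10000 bp in 4 orientations, with no normalization. Per the submitters' processing notes, CASAVA 1.8.2, Bowtie2 and sacCer3 were used. Per the labels, DNA was size-selected on a gel and amplified by PCR. How the orientations are defined and whether duplicates were removed is not given in the sources used here. The deposited compaction score per gene was not used, and 0 per-sample columns were left unused. The labels name 2 replicates, fewer than the methods.

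Distances from 83 to 3300 bp were kept. Counts were smoothed over 21 bp, and peaks were sought on log2 counts minus a 161 bp moving mean (the first peak, from 120 to 220 bp, on the smoothed counts), up to 15 peaks within 50 bp of the place foreseen. Peaks and troughs 1 to 5 are given in full and later ones by range, as the naming rule set. A damped cosine on a cubic baseline in log distance was fitted by Poisson likelihood, with a repeat of 120 to 220 bp allowed and standard errors widened by the dispersion. Shares have 95% Wilson intervals and log2 ratios 95% counting intervals. These cover counting error only and treat each read pair as independent. Reads carried no molecular identifiers, so copies made by PCR may be counted as separate pairs, and the intervals may be too narrow. The median count per bp was 229.5 in library A and 282.5 in library B from 83 to 1000 bp, and 9 and 12 from 3000 to 3300 bp. Read pairs and distances are not replicates, and no groups were compared. The members and the items described were chosen with earlier results of these data known. The fitting procedure was checked on counts simulated from the same damped cosine, over a range of distances not used for the values given. That check does not test whether the model holds for these counts. Python 3.11.15, numpy 2.4.6, scipy 1.17.1 and matplotlib 3.10.9 were used.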

Additional observations from a re-analysis of the deposited data

Results flagged for a closer look

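Below the ladder's lower end the balance of the 2 columns was lost. At 31 to 40 bp the in-out share of in-out and out-in pairs was 69.2% in library A and 71.7% in library B, and at 51 to 60 bp it was 39.3% and 41.6%. Over 1 to 82 bp it was 45.1% and 47.5%, and bp by bp the split varied 18.3 and 26.8 times as much as counting error. These distances lie outside the ladder, the bins were picked after the counts were seen, and the values are given as a description with no control samples beside them.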

How the results depend on the processing

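No paired analysis was possible because both libraries are of 1 strain and the columns carry no replicate number. The repeat length at the limit of the main fit (220 bp) stayed there with either column alone and with either library left out (220 to 220 bp). It was 172.9 bp over 250 to 3300 bp, 188.8 bp over 83 to 1000 bp, 176.6 bp with a quadratic baseline and 169.75 bp on a line through the peaks. In ranges added after the data were seen it was 172.5 bp over 250 to 3300 bp with a quadratic baseline, 173.1 bp over 250 to 1000 bp and 166.0 bp over 420 to 3300 bp. The damping length, 463 bp in the main fit, was 135, 759, 882 and 397 bp in the first 4 of these settings. In the added ones it was 127, 130 and 422 bp, and leaving out a library in the main fit gave 452 to 473 bp. Over 83 to 1000 bp the residuals were 12.8 (library A) and 16.9 (library B) times the counting variance. With the quadratic baseline over 83 to 3300 bp they were 8.84 and 14.5 times. Both settings thus fitted worse than the main fit. The unbroken run of peaks above 0 in both libraries at their own positions was 5, but 15, the number sought, with an 11 bp window, with in-out pairs alone and with out-in pairs alone. The run was 5 in library A, where only peak 6 of the 15 was not above 0 (14 were), and 15 in library B, against 5 in each at the other library's positions. The amplitude of peak 1 was 0.90, and 1.41 over the trough after it alone (0.82 to 0.99 with a library left out). The in-out share was 49.77%, and 46.3% over 1 to 82 bp (49.64% to 49.90%). Over 120 to 3300 bp, a range added after the data were seen, it was 49.77%. The decay with distance was 6.64, and 5.37 to the tenth interval (6.56 to 6.72). The power of the fine oscillation was 1.76, and 4.02 over 83 to 1000 bp and 0.89 over 1000 to 3300 bp (1.23 to 2.29). The causes were not tested. The other values moved by less than 1 SD, and 0 reversed. The counts per bp fall with distance and limit what can be seen of the ladder beyond 1000 bp.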
